A study of Mus musculus with 36 samples.

Results

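Imprinted genes are expressed from only 1 parental copy in many tissues, and 40 such genes outside the *Dlk1*-*Dio3* domain were followed through neural differentiation of mouse embryonic stem cells (ESCs) with and without TET1. The members were fixed as a list of gene symbols, and each of the 40 symbols matched exactly 1 of the 54281 genes in every table. All 40 passed the filter on low counts and are among the 21601 genes tested. They lie in 20 imprinted domains, of which 10 are represented by 1 member. They were grouped from general knowledge by the copy they are known to be expressed from, when earlier results of these data were known. The paternal group held 22 genes and the maternal group 8. For the remaining 10 the expressed copy differs by isoform or tissue, or the gene is the host of an imprinted one. Of the paternal genes, 14 have a promoter inside a region whose methylation differs between the parental copies (a differentially methylated region, DMR), methylated on the maternal copy. Neither parental copies nor DNA methylation were measured in these data, so each value is the sum over both copies. The study profiled DNA methylation of cells with and without TET1 by bisulfite sequencing in other samples, which were not used here.

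The study asked how TET1, which oxidises methylated cytosine, directs the choice between neural and primitive streak fates, and how much of this needs its catalytic activity. The lines without *Tet1* (KO1, KO15) and those with it (WT7, WT34) are male (B6 × 129S6)F1 ESC lines of the *Tet1*tm1Koh strain, derived from littermate blastocysts, kept on fibroblast feeder cells in serum and then plated without feeders in serum-free medium, with bFGF over the first 3 days. KO and WT gave 2 libraries each on days 0, 1, 2 and 4, 4 each on day 3 and 3 each on day 5. *Tet1* MUT lines CM59 and CM69, clones carrying a catalytic mutation made by CRISPR and homology directed repair, gave 2 libraries each day on days 3 and 5, beside 1 library per day of WT70, a line labelled only as WT. Per the study, the MUT clones were derived from WT7 and compared with mock-transfected clones, but no label ties WT70 to one of these. The 36 libraries held 10.1 M to 26.3 M counts (M, mega; median 14.6 M). Replicates are lines and repeat differentiations of the same lines, so p-values measure the spread between these libraries.

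At an imprinted locus the parental copies can carry the same sequence and still differ in DNA methylation, which is set in the germ line and kept after fertilisation while the rest of the genome is reprogrammed. The zinc finger protein ZFP57 binds the methylated copy at the motif TGCCGC and recruits TRIM28, which helps to keep the mark. Paternally expressed genes with a maternally methylated promoter are silent on the maternal copy, whereas many maternally expressed genes are silenced at a distance by a non-coding RNA or an insulator. The products act in fetal and placental growth, in brain development and in the balance of pluripotent cells, and imprints are known to be unstable in cultured ESCs. TET proteins are known to take part in removing imprints in the germ line.

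Levels are in CPM, counts scaled to a common library total with TMM factors. Gene positions are on GRCm38, and each is the span of a gene or of the members of a domain, introns included. In lists of values KO1 stands before KO15, WT7 before WT34, and experiment 1 before experiment 2. The words passed, higher, lower, rose and fell stand for an adjusted p under 0.05 (edgeR quasi-likelihood F test, Benjamini-Hochberg over the 21601 genes, the test behind every adjusted p below) and a log2 fold change over 1, in either direction. Log2 change stands for log2 fold change, and SE for its standard error.

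Of the 5 genes that passed on 3 or more days of KO against WT, the promoters of 4 are shown with the TGCCGC motif, on either strand, in capitals, so that their CpG and motif content can be seen. The sequences are from RefSeq (GRCm38.p6), run 5′ to 3′ on the strand of the gene from 250 bases before to 50 after a start site, and where a gene had several starts the one with the most CpG is given. *Mest* (chr6:30737800-30738099, plus strand, 17 CpG) and *Nnat* (chr2:157559828-157560127, plus strand, 17 CpG) have a promoter DMR. *Usp29* (chr7:6730333-6730632, plus strand, 17 CpG) has one too, and its window shares 263 bases with that of *Peg3* (chr7:6730370-6730669, minus strand, 13 CpG), the fifth gene, which is therefore not printed a second time. *Magel2* (chr7:62376729-62377028, plus strand, 10 CpG) has no germline promoter DMR of its own.
Mest: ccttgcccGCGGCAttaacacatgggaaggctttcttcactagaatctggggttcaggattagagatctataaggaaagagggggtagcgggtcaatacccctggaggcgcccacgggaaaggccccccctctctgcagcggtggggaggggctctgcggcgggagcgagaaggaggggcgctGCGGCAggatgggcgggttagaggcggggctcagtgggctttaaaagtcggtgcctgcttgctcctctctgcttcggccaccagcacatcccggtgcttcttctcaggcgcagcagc
Nnat: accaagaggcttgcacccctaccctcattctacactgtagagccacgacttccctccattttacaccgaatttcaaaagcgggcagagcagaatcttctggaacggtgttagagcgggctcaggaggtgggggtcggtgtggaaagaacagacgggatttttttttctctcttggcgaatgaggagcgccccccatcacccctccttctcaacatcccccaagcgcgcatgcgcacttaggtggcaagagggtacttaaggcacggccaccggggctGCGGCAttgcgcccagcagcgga
Usp29: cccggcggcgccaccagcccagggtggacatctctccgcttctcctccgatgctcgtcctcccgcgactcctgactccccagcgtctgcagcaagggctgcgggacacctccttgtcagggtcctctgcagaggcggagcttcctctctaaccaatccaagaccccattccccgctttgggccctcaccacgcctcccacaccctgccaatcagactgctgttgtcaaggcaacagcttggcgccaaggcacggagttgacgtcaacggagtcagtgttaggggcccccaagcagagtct
Magel2: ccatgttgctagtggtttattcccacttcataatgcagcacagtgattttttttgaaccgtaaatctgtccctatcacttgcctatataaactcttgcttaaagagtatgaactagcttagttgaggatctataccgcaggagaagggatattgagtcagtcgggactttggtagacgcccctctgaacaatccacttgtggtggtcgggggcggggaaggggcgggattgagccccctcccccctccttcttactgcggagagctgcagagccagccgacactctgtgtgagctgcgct
The *Mest* window held the motif 2 times and the *Nnat* window 1 time, and those of *Usp29* and *Magel2* held none. A window was found for 33 of the 40 genes. The motif was in 5 of the 10 windows of promoter-DMR genes and in 4 of the 23 others, against 11.6% of all 32817 windows in the table. The median CpG count was 15 in the promoter-DMR windows, 23 in the others and 7 in all windows. The windows of members were chosen by CpG and the motif holds a CpG, so these shares are not of like sets. The matches are descriptions of the letters and not binding sites.

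From day 0 to day 3 every member that passed was lower in KO, and 8 members did so on at least 1 of these days: *Mest*, *Peg3*, *Usp29*, *Nnat*, *Magel2*, *Ndn*, *Sgce* and *Inpp5f*. On day 4, 8 of the 13 that passed were higher, and on day 5, 13 of 16. Over the 6 days 23 members passed, 13 as higher and 12 as lower on at least 1 day, with *Peg3* and *Usp29* in both counts. The share of all genes that passed on at least 1 of several days was not taken. Only the counts of single days, given next, stand beside a background.

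The counts of members higher and lower were 0 and 3 on day 0, 0 and 4 on day 1, 0 and 4 on day 2, 0 and 6 on day 3, 8 and 5 on day 4, and 13 and 3 on day 5. Over all genes tested, 0.569% were higher and 0.296% lower on day 0, 0.292% and 0.343% on day 1, 0.417% and 0.199% on day 2, and 2.09% and 1.87% on day 3. On day 4 they were 3.4% and 4.28%, and on day 5 5.99% and 5.73%. On day 5 the 3 members lower in KO are 7.5% of the 40, near the background, and the 13 higher are 32.5%. On the adjusted p alone, with no limit on the fold, 1 member was higher and 7 lower on day 0, 0 and 7 on day 1, 0 and 8 on day 2, and 1 and 15 on day 3. The same rule took 2.37% and 1.62% of all genes on day 0, 1.24% and 1.65% on day 1, 0.875% and 0.847% on day 2, and 6.25% and 9.5% on day 3.

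The counts at the earliest days rest on few libraries. Leaving out 1 library left 1 to 3 members on day 0, 1 to 9 on day 1, 0 to 3 on day 2 and 4 to 9 on day 3. The day 0 count was 1 without WT7, the day 1 count 1 without KO1, 1 without WT7 and 9 without WT34, and the day 2 count 0 without KO1 and 2 without WT7. On day 1 no member passed in a fit of the compared libraries alone, where 5 of all genes did.

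By parental group, the 14 promoter-DMR genes stood below 0 (log2 fold change, KO over WT) in 11 cases on day 0, 14 on day 1, 13 on day 2 and 14 on day 3. Their median log2 fold changes were -0.56, -0.87, -0.80 and -0.71 on these days, whereas the median of all genes tested stayed between -0.01 and 0.01. The other 8 paternal genes had medians of -0.01, -0.15, -0.20 and -0.48, and the 8 maternal genes -0.05, -0.11, 0.11 and 0.15. On days 4 and 5 the promoter-DMR genes had medians of -0.46 and -0.32, with 10 and 8 of 14 below 0. The maternal genes then had medians of 1.49 and 1.66, with 8 and 7 of 8 above 0, of which 4 and 6 passed. These days share no libraries, yet they share the same 4 lines, so the days are not independent.

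**Figure D1:**
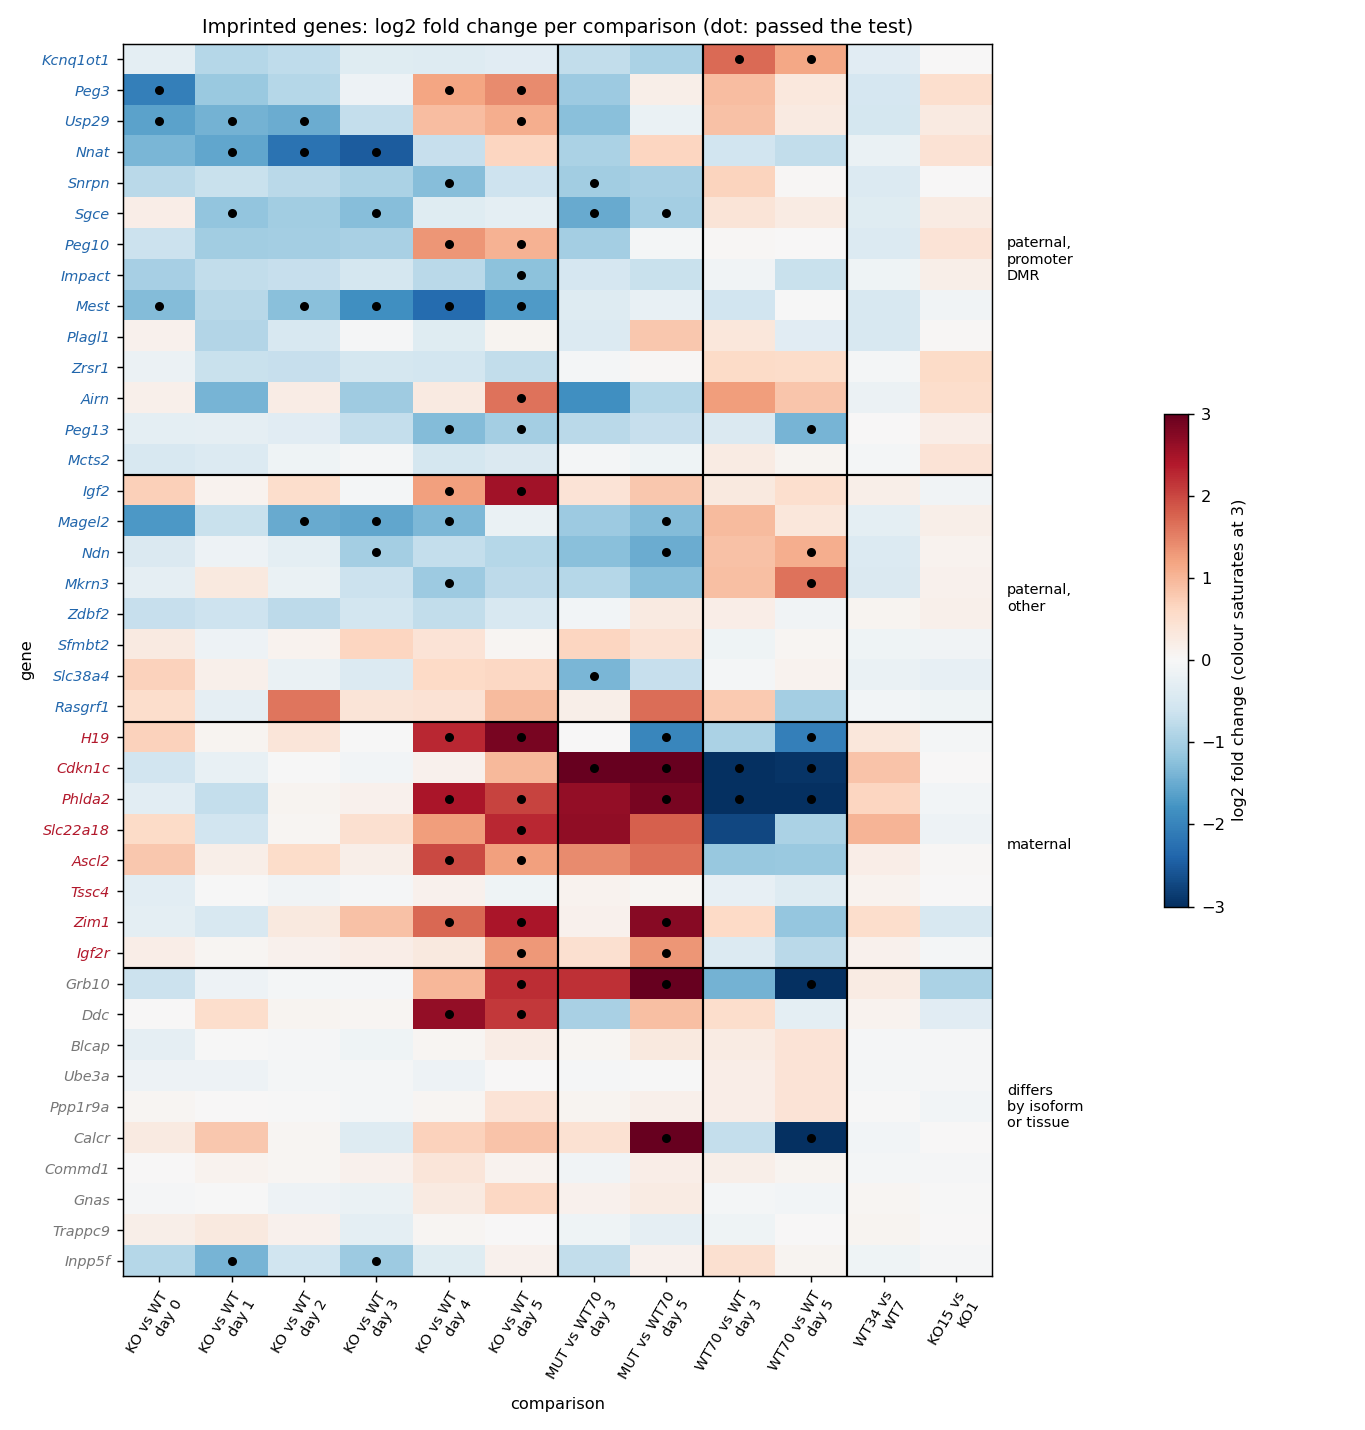
Log2 fold change (colour) of the 40 genes (rows, grouped by parental class) in KO against WT on days 0 to 5, MUT against WT70, WT70 against WT7 and WT34, and between the lines of a genotype (columns), where a dot marks a gene that passed. Blue fills the upper left, where promoter-DMR genes had medians of -0.56 to -0.87 on days 0 to 3, and red fills the maternal block on days 4 and 5.

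**Figure D2:**
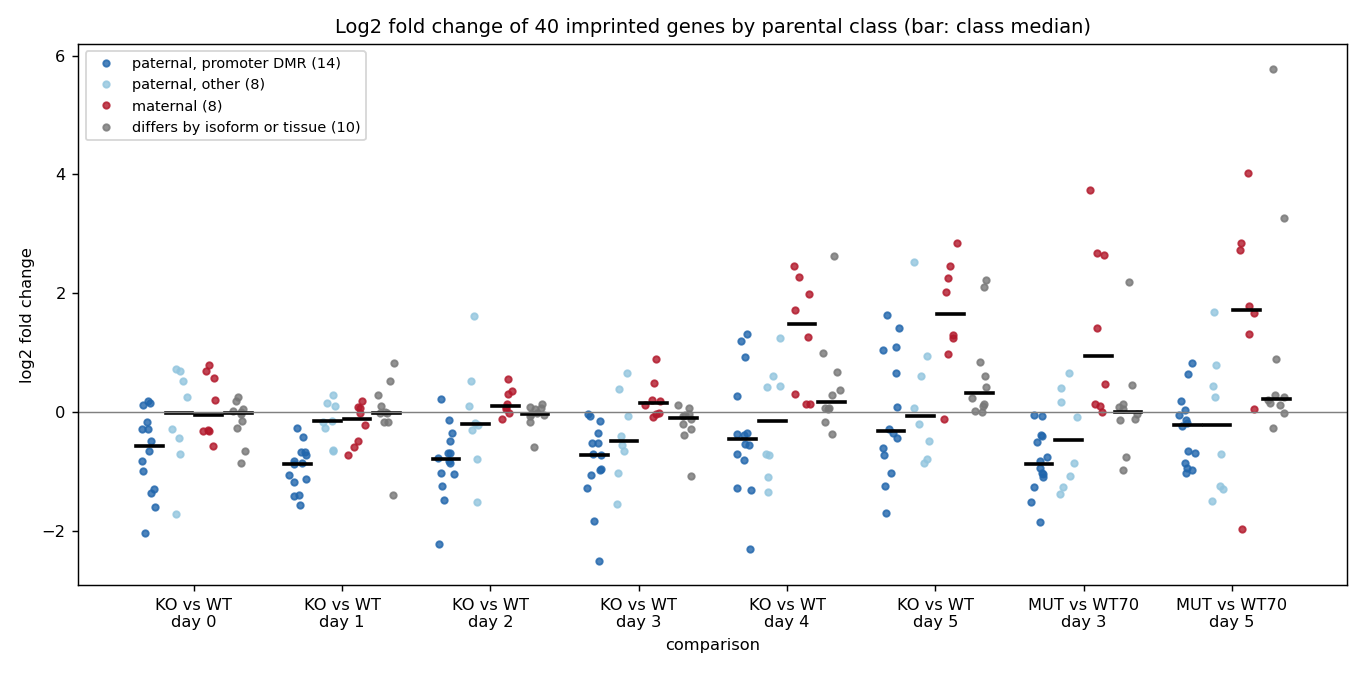
Log2 fold change (vertical axis) of each gene by parental class in KO against WT on 6 days and MUT against WT70 on 2 days, with a bar at each class median. The promoter-DMR medians lie below 0 throughout, and the maternal medians are 1.49 and 1.66 on days 4 and 5 of KO.

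*Mest* (chromosome 6, 30723547 to 30748465), a paternally expressed hydrolase-like gene of mesoderm, passed on 5 of the 6 days and was lower each time. On day 0 KO cells held 66.9 and 47 CPM and WT cells 154 and 127 CPM (log2 change -1.3, SE 0.32, adjusted p = 0.0194). On day 2 the levels were 108 and 113 against 296 and 231 CPM (log2 change -1.25, SE 0.31, adjusted p = 0.0354), and on day 3, 71.1, 72.4, 57.2 and 59.3 against 323, 253, 196 and 161 CPM (log2 change -1.84, SE 0.22, adjusted p = 1.55e-06). KO and WT libraries did not overlap on any day. On day 4 KO cells held 168 and 141 and WT cells 966 and 551 CPM (log2 change -2.3, SE 0.32, adjusted p = 7.73e-06), and on day 5, 290, 293 and 349 against 814, 655 and 1530 CPM (log2 change -1.69, SE 0.25, adjusted p = 1e-05). On day 1 it was 151 and 151 against 287 and 251 CPM and did not pass (log2 change -0.83, SE 0.31, adjusted p = 0.156). *Mest* rose in WT cells from day 3 to day 5 (log2 fold change 2.1). The day 0 call was lost without KO15 (-1.07), WT7 (-1.16) or WT34 (-1.44), and the day 2 call without any 1 of the 4 libraries (-1.06 to -1.42), whereas the calls of days 3 to 5 held without any 1 library.

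The *Peg3* domain (chromosome 7, 6671269 to 6967219) holds the paternally expressed *Peg3*, a zinc finger gene, and *Usp29*, a ubiquitin protease gene that starts beside it on the other strand, and the maternally expressed zinc finger gene *Zim1*. *Peg3* and *Usp29* were low in KO at the start and high at the end. *Peg3* held 41.9 and 87.1 CPM in KO and 326 and 205 CPM in WT on day 0 (log2 change -2.04, SE 0.36, adjusted p = 0.00134), with no overlap. On day 3 the groups overlapped at 264, 307, 324 and 387 against 395, 297, 404 and 316 CPM (log2 change -0.15, SE 0.24, adjusted p = 0.764). On day 5 KO held 1750, 1960 and 1920 CPM and WT 628, 498 and 1050 CPM (log2 change 1.41, SE 0.28, adjusted p = 3.38e-04), after 1360 and 1310 against 644 and 523 CPM on day 4 (log2 change 1.19, SE 0.34, adjusted p = 0.0168). The genotypes were thus not separated on day 3, and KO lay above WT without overlap on day 4. The day 4 call of *Peg3* was lost without any 1 of the 4 libraries (1.06 to 1.35).

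*Usp29* followed the same course at a lower level. On day 0 KO held 2.06 and 2.12 CPM and WT 7.53 and 5.44 CPM (log2 change -1.6, SE 0.41, adjusted p = 0.0252). On day 1 the levels were 3.46 and 6.78 against 18.7 and 9.48 CPM (log2 change -1.42, SE 0.33, adjusted p = 0.0199) and on day 2, 2.34 and 4.99 against 11.5 and 8.58 CPM (log2 change -1.48, SE 0.36, adjusted p = 0.0291). KO1 was the lower KO line on days 1 and 2, and WT7 the higher WT line. On day 3 the difference did not pass the fold limit (log2 change -0.71, SE 0.22, adjusted p = 0.0287), on day 4 it was 47 and 44 against 28.7 and 19.6 CPM (log2 change 0.92, SE 0.29, adjusted p = 0.0278), and on day 5, 59.6, 64.1 and 67.9 against 27.6, 19.4 and 44 CPM (log2 change 1.1, SE 0.23, adjusted p = 5.56e-04). The day 0 call was lost without any 1 library (-1.38 to -1.85), the day 1 call without KO1 (-1.04) or WT7 (-0.85), the day 2 call without KO1 (-1.0), WT7 (-1.25) or WT34 (-1.67), and the day 5 call without WT34 (0.90). *Zim1*, on the other parental copy, was near 1.92 and 1.89 CPM in KO and 2.34 and 2.36 CPM in WT on day 0. It reached 42.1, 23 and 39.5 CPM in KO and 4.24, 7.34 and 7.76 CPM in WT on day 5 (log2 change 2.45, SE 0.30, adjusted p = 5.69e-07), after 15.1 and 7.44 against 2.75 and 4.08 CPM on day 4 (log2 change 1.72, SE 0.38, adjusted p = 0.00206), a call lost without KO1 (1.12) or WT7 (1.47).

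*Nnat* (chromosome 2, 157560078 to 157562522), which encodes a membrane proteolipid of neural tissue, lies inside *Blcap* on the opposite strand and was lower in KO from day 1 to day 3. KO held 11.8 and 14.7 CPM against 39.8 and 39.2 CPM in WT on day 1 (log2 change -1.57, SE 0.40, adjusted p = 0.0328). The levels were 11.4 and 17.3 against 76.5 and 56.5 CPM on day 2 (log2 change -2.22, SE 0.40, adjusted p = 0.00246) and 11.5, 17.4, 9.1 and 12.7 against 80.5, 82, 69.7 and 53.5 CPM on day 3 (log2 change -2.5, SE 0.28, adjusted p = 5.15e-07). No KO library reached a WT library on these days. On day 0 the levels were 4.77 and 6.36 against 16 and 12.9 CPM, on day 4 21.5 and 39.4 against 51.9 and 46.8 CPM, and on day 5 53.9, 96 and 176 against 52.7, 56.5 and 95.8 CPM, and none passed (log2 fold changes -1.36, -0.7 and 0.65). The day 1 call was lost without KO1 (-1.42), KO15 (-1.74) or WT7 (-1.56), the day 2 call without KO1 (-1.93), and that of day 3 held without any 1 library. *Blcap* did not pass on any day (log2 fold changes -0.26 to 0.23).

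**Figure D3:**
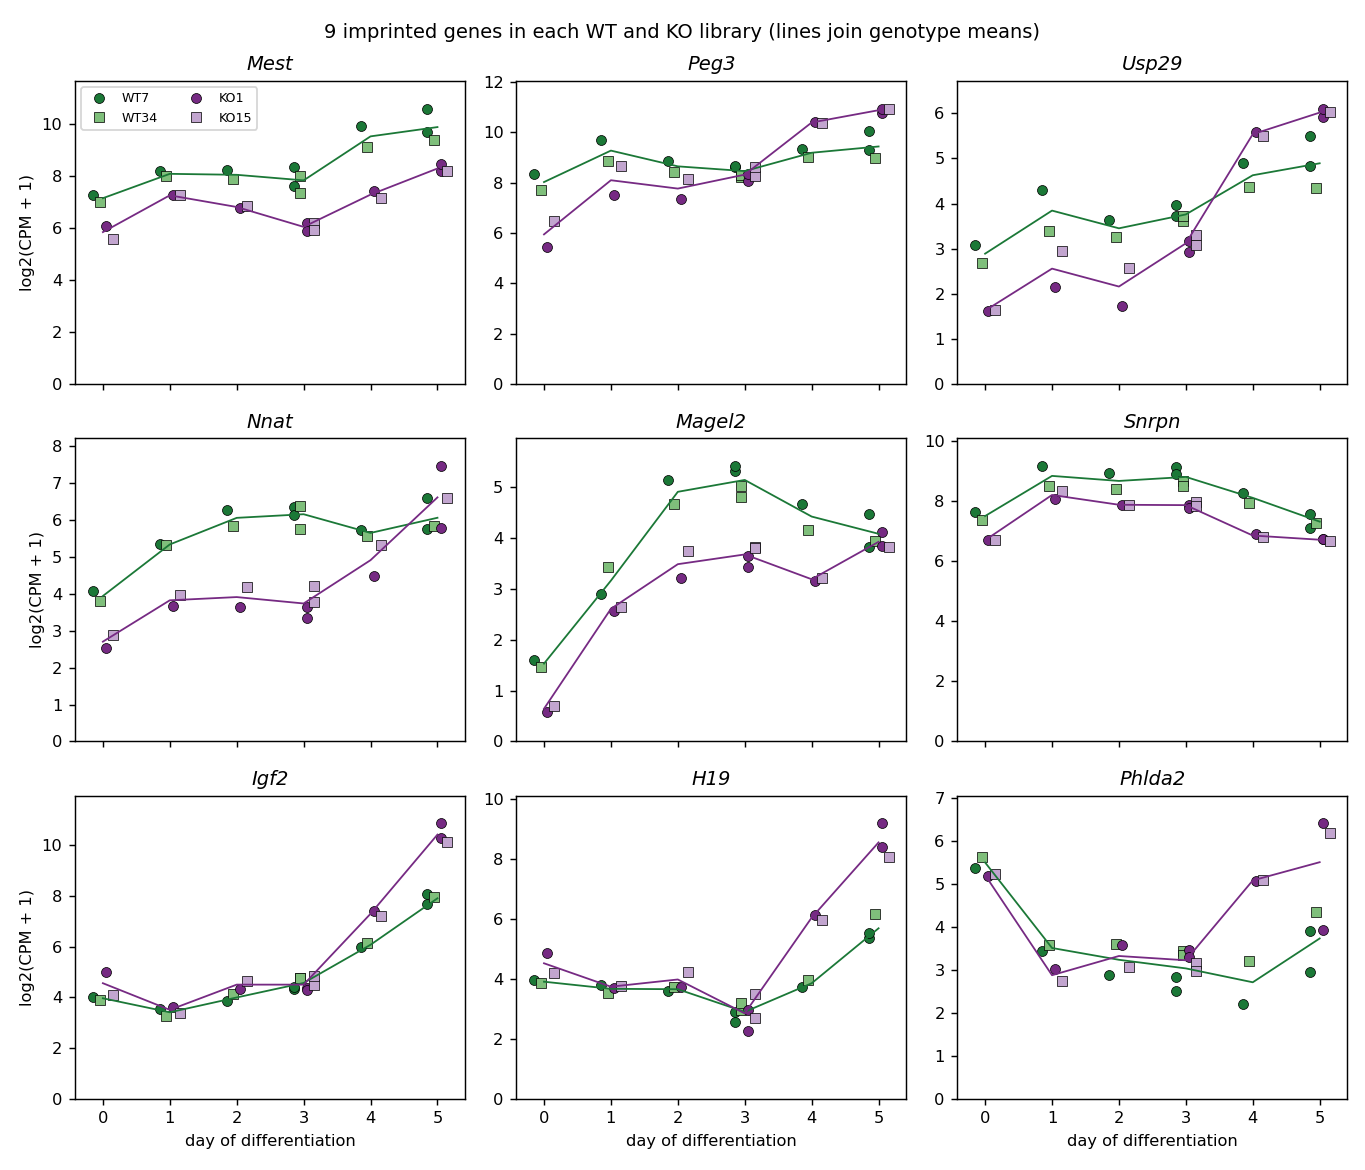
Level of 9 imprinted genes in each WT and KO library, as log2(CPM + 1) (vertical axis) by day (horizontal axis), with lines joining the genotype means. *Mest* and *Snrpn* of KO lie below WT on every day, and *Magel2* of KO does so up to day 4 and overlaps WT on day 5. The genotype means of *Peg3* and *Usp29* cross between days 3 and 4, and *Igf2* and *H19* of KO reach 1870 and 587 CPM on day 5.

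The *Snrpn* domain (chromosome 7, 59228750 to 62420139), the mouse counterpart of the Prader-Willi and Angelman region, holds the paternal genes *Snrpn*, *Ndn*, *Magel2* and *Mkrn3* and the ubiquitin ligase gene *Ube3a*, which is imprinted in neurons. *Magel2*, of the MAGE family, was lower in KO on days 2, 3 and 4. Its levels were 8.34 and 12.5 against 34.5 and 24.6 CPM on day 2 (log2 change -1.51, SE 0.25, adjusted p = 0.00105), 11.6, 13.2, 9.8 and 13 against 39.3, 27, 41.9 and 31.6 CPM on day 3 (log2 change -1.55, SE 0.17, adjusted p = 4.4e-07) and 7.93 and 8.36 against 24.7 and 17 CPM on day 4 (log2 change -1.35, SE 0.26, adjusted p = 4.42e-04). No library of KO reached WT on those days, and by day 5 the groups overlapped at 13.3, 13.2 and 16.4 against 21.3, 14.5 and 13.2 CPM. The day 2 call was lost without KO1 (-1.23). *Ndn*, also of the MAGE family, was lower on day 3, at 8.35, 9.69, 7.46 and 9.79 against 20.5, 16.5, 21 and 13.8 CPM (log2 change -1.02, SE 0.19, adjusted p = 3.87e-04), a call lost without WT7 of experiment 1 (-0.86) or 2 (-0.96) or KO1 of experiment 2 (-0.90).

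*Mkrn3*, a ubiquitin ligase gene, was lower on day 4, at 4.92 and 4.76 against 11.1 and 9.58 CPM (log2 change -1.1, SE 0.36, adjusted p = 0.0343), a call lost without any 1 library (-0.98 to -1.18). *Snrpn*, a spliceosomal gene whose transcript also carries *Snurf*, was lower in KO libraries than in WT on every day with no overlap, and passed on day 4 at 119 and 112 against 312 and 246 CPM (log2 change -1.27, SE 0.19, adjusted p = 2.55e-05). On day 3 its levels were 237, 249, 220 and 231 against 567, 413, 480 and 365 CPM, short of the fold limit (log2 change -0.96, SE 0.13, adjusted p = 9.7e-06). *Ube3a*, which is read from both copies outside neurons, ranged from 165 to 301 CPM over all libraries, and its log2 fold changes were -0.16 to 0.02.

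In the *Peg10*-*Sgce* domain (chromosome 6, 3685680 to 5165661) the paternal genes *Sgce*, a sarcoglycan, and *Peg10*, derived from a retrotransposon, start 99 bases apart on opposite strands, and they took different courses. *Sgce* was lower on day 1, at 1.64 and 1.96 against 5.5 and 2.82 CPM (log2 change -1.18, SE 0.32, adjusted p = 0.0442), and on day 3, at 4.97, 6.87, 5.64 and 5.28 against 18.7, 14, 12.2 and 11.3 CPM (log2 change -1.28, SE 0.17, adjusted p = 4.44e-06). The day 1 call was lost without KO1 (-1.07), KO15 (-1.33) or WT7 (-0.63). *Peg10* held 86.7, 118, 67.2 and 105 CPM in KO and 240, 193, 160 and 156 CPM in WT on day 3, short of the fold limit (log2 change -0.97, SE 0.22, adjusted p = 0.00253). It was higher in KO on day 4, at 394 and 580 against 208 and 181 CPM (log2 change 1.32, SE 0.31, adjusted p = 0.00329), and on day 5, at 739, 1040 and 442 against 305, 289 and 432 CPM (log2 change 1.05, SE 0.25, adjusted p = 0.00218). The day 4 call was lost without KO15 (1.04) or WT34 (1.24), and the day 5 call without KO15 (0.79), WT7 of experiment 1 (0.91) or WT34 (0.88). *Ppp1r9a* and *Calcr*, the calcitonin receptor gene, did not pass in KO.

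*Impact* (chromosome 18, 12955852 to 12992950), a regulator of translation, stood lower in KO with no overlap on every day and passed on day 5, at 91.4, 113 and 70.8 against 291, 225 and 143 CPM (log2 change -1.24, SE 0.13, adjusted p = 4.44e-08). *Inpp5f* (chromosome 7, 128611328 to 128696425), a phosphoinositide phosphatase gene with an imprinted isoform, was lower on day 1, at 9.87 and 8.39 against 27.3 and 20.4 CPM (log2 change -1.4, SE 0.15, adjusted p = 2.8e-06), and on day 3, at 26, 26.6, 28.6 and 29.4 against 64.9, 59.3, 57.3 and 52.3 CPM (log2 change -1.08, SE 0.09, adjusted p = 8.17e-09). The day 3 call was lost without WT7 of experiment 1 (-0.99).

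*Peg13*, a non-coding RNA within *Trappc9* (chromosome 15, 72805600 to 72810324), was lower on day 4, at 2.53 and 3.45 against 7.65 and 7.18 CPM (log2 change -1.31, SE 0.28, adjusted p = 0.00142), and on day 5, at 4.12, 5.69 and 4.68 against 10.4, 9.5 and 9.51 CPM (log2 change -1.02, SE 0.22, adjusted p = 7.02e-04). It lies on the strand of its host, whose pre-mRNA can share its reads. The day 5 call was lost without KO1 (-0.88) or WT7 (-1.0) of experiment 1 or WT7 of experiment 2 (-0.95), and with a term for the cell line (-1.0). *Zdbf2* (chromosome 1, 63273265 to 63314576), a zinc finger gene, did not pass the fold limit, although KO lay below WT without overlap on all 6 days, with log2 fold changes of -0.48 to -0.79 and adjusted p of 1.06e-04 to 0.0107.

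The *H19*-*Igf2* domain (chromosome 7, 142575529 to 142666816) pairs the paternal growth factor gene *Igf2* with the maternal non-coding RNA *H19*, which share enhancers. Both were higher in KO on days 4 and 5. *Igf2* held 167 and 147 CPM in KO and 62.6 and 70.8 CPM in WT on day 4 (log2 change 1.24, SE 0.21, adjusted p = 1.18e-04), and 1250, 1110 and 1870 against 206, 247 and 271 CPM on day 5 (log2 change 2.53, SE 0.17, adjusted p = 3.83e-11). *H19* held 69.5 and 61.2 against 12.4 and 14.7 CPM on day 4 (log2 change 2.27, SE 0.30, adjusted p = 5.37e-06) and 338, 270 and 587 against 40, 71.5 and 45.7 CPM on day 5 (log2 change 2.84, SE 0.24, adjusted p = 1e-09). The lowest KO library lay above the highest WT library for both genes on both days. Until day 3 neither passed, with levels of 8.62 to 31.4 CPM for *Igf2* and 3.84 to 28 CPM for *H19* in KO and WT libraries.

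In the *Kcnq1* domain (chromosome 7, 142966829 to 143503150) the maternal genes *Phlda2*, which limits placental growth, *Ascl2*, a trophoblast transcription factor, and *Slc22a18*, a solute carrier, were higher in KO on day 5, the first 2 also on day 4. *Phlda2* held 32.4 and 33.3 against 3.64 and 8.24 CPM on day 4 (log2 change 2.46, SE 0.48, adjusted p = 5.1e-04). On day 5 it held 84, 72 and 14.1 against 14, 19.3 and 6.68 CPM (log2 change 2.02, SE 0.36, adjusted p = 1.07e-04), where the KO1 library of experiment 2 lay within the WT range. *Ascl2* held 3.9 and 6.37 against 0.817 and 1.76 CPM on day 4 (log2 change 1.98, SE 0.42, adjusted p = 0.00129) and 5.38, 3.85 and 3.65 against 1.44, 1.08 and 3.24 CPM on day 5 (log2 change 1.24, SE 0.33, adjusted p = 0.00556), the latter lost without KO1 of experiment 1 (0.98) or WT34 (0.99). *Slc22a18* was low, at 3.59, 2.37 and 2.44 against 0.53, 0.773 and 0.472 CPM on day 5 (log2 change 2.25, SE 0.50, adjusted p = 9.93e-04).

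*Cdkn1c*, which encodes a cyclin-dependent kinase inhibitor, held 130, 120 and 115 CPM in KO and 47.2, 92.2 and 47.1 CPM in WT on day 5 and did not pass the fold limit (log2 change 0.97, SE 0.29, adjusted p = 0.0115). WT34 was the higher WT line in all 7 pairs of libraries. *Kcnq1ot1*, the paternal antisense RNA inside *Kcnq1*, did not pass on any day (log2 fold changes -0.29 to -0.85), and nor did the splicing cofactor gene *Tssc4*. The libraries were made with a stranded kit, but the strand setting of the counting is not given in the sources used here, so *Kcnq1ot1* and *Kcnq1* reads may not be separable.

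*Grb10* (chromosome 11, 11930508 to 12038683), a growth factor receptor adaptor expressed from the maternal copy in most tissues and from the paternal copy in neurons, was higher in KO on day 5, at 1350, 525 and 1460 against 197, 264 and 249 CPM (log2 change 2.22, SE 0.34, adjusted p = 1.26e-05). KO15 held less than KO1 on each day, and on day 4 KO1 held 706 and KO15 291 CPM against 221 and 276 CPM in WT, which did not pass (log2 change 1.0, SE 0.40, adjusted p = 0.0935). Its neighbour in the *Grb10* domain, *Ddc*, the aromatic amino acid decarboxylase gene, was higher on day 4, at 2.26 and 1.38 against 0.223 and 0.352 CPM (log2 change 2.63, SE 0.40, adjusted p = 3.25e-05), and on day 5, at 4.65, 3.55 and 4.68 against 0.833, 0.773 and 1.35 CPM (log2 change 2.11, SE 0.27, adjusted p = 8.48e-07), from low counts.

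*Igf2r* (chromosome 17, 12682406 to 12769664), the maternal receptor that clears IGF2, was higher on day 5, at 655, 489 and 517 against 219, 228 and 231 CPM (log2 change 1.29, SE 0.09, adjusted p = 4.79e-11). The paternal antisense RNA *Airn*, which overlaps 28354 bases of *Igf2r* on the other strand, was higher too, at 16.3, 15.3 and 13.6 against 4.77, 4.02 and 5.73 CPM (log2 change 1.64, SE 0.39, adjusted p = 0.00181), and the caution on strand holds for this pair as well. Before day 5 *Igf2r* held 99.5 to 283 CPM in KO and WT libraries without passing.

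Of the 40 genes, 14 did not pass in KO or MUT on any day, a count with no like share of all genes. These were *Blcap*, *Commd1*, *Gnas*, *Kcnq1ot1*, *Mcts2*, *Plagl1*, *Ppp1r9a*, *Rasgrf1*, *Sfmbt2*, *Trappc9*, *Tssc4*, *Ube3a*, *Zdbf2* and *Zrsr1*. Of these, *Gnas*, *Plagl1* and *Sfmbt2* passed in WT cells over time. *Plagl1*, a zinc finger gene of the cell cycle, held 2.14 to 46.7 CPM over all libraries, and *Sfmbt2*, a Polycomb group gene, 25.3 to 180 CPM. *Zdbf2* held 234 to 668 CPM and *Kcnq1ot1* 26.7 to 161 CPM. *Ppp1r9a*, for the actin-binding neurabin, held 58.8 to 123 CPM, *Commd1*, a copper homeostasis gene, 30.7 to 47.3 CPM, *Trappc9*, of a vesicle tethering complex, 11.9 to 36.3 CPM, *Blcap* 16.1 to 39.5 CPM and *Tssc4* 14.3 to 26.3 CPM. *Gnas*, for the stimulatory G protein, pools transcripts of different parental origin in 1 row and ranged from 166 to 1230 CPM. *Rasgrf1*, a Ras exchange factor of neurons, was near the limit of detection at 0.278 to 3.37 CPM. *Mcts2*, a retrogene within *H13* that closely resembles its parent gene, and *Zrsr1*, a retrogene within *Commd1*, held 10.3 to 28.7 and 8.97 to 35.9 CPM, and both are uncertain in level because reads of near-identical or overlapping transcripts are shared by estimate.

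The turn between the start and the end of the course was tested as the difference of the KO effects of days 5 and 0. It passed for 12 members, all with a higher KO effect on day 5, against 3.05% of all genes in that direction, and for 0 members in the other, against 4.52%. The largest were *Peg3* (log2 change 3.45, SE 0.46, adjusted p = 7.83e-06), *Grb10* (log2 change 2.87, SE 0.53, adjusted p = 4.14e-04), *Zim1* (log2 change 2.75, SE 0.54, adjusted p = 7.44e-04) and *Usp29* (log2 change 2.71, SE 0.47, adjusted p = 1.99e-04). *Phlda2* (2.33), *H19* (2.14), *Ddc* (2.1), *Nnat* (2.01), *Igf2* (1.81), *Peg10* (1.7), *Cdkn1c* (1.54) and *Igf2r* (1.09) made up the rest. The call of *Cdkn1c* was lost without 7 of the 10 libraries in turn, KO1, KO15, WT7 or WT34 of day 0, or KO1 of experiment 1 or WT7 of either experiment of day 5 (1.36 to 1.71), that of *Nnat* without KO1 (1.83) or WT7 (1.88) of day 0, and that of *Igf2r* without KO1 of experiment 1 of day 5 (0.94). *Mest*, *Snrpn*, *Impact* and *Zdbf2* did not pass, with differences of -0.39, 0.2, -0.25 and 0.22.

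The cells compared on days 4 and 5 also differed in cell type markers, and fewer cells of a type and less RNA per cell cannot be told apart in bulk samples. On day 5 the summed level of 5 mesoderm markers was 171 to 223 CPM in KO and 10.2 to 32 CPM in WT, that of 4 endoderm markers 124 to 173 and 20.6 to 73.6 CPM, and that of 5 neural progenitor markers 78.8 to 124 and 308 to 390 CPM. On day 4 the mesoderm sums were 44 to 45.3 and 10.1 to 11.8 CPM and the endoderm sums 221 to 231 and 31.9 to 33.1 CPM. *Mest*, lower in KO on these days, and *Igf2* and *H19*, higher in KO, are known from mesoderm. The part of these cells in the day 4 and 5 differences was not tested. On day 0, when *Peg3*, *Usp29* and *Mest* were already lower, 5 ESC markers summed to 2920 to 2940 CPM in KO and 2900 to 2970 CPM in WT. Their sums were 1340 to 1480 against 957 to 1280 CPM on day 1, 960 to 971 against 856 to 910 CPM on day 2, and 986 to 1170 against 850 to 937 CPM on day 3. They were 291 to 305 against 550 to 551 CPM on day 4 and 76.6 to 90 against 309 to 338 CPM on day 5. The sum of KO thus stood above WT on days 1 to 3 and below on days 4 and 5. *Pou5f1* made up most of the sums on days 1 to 3, and the markers did not all move alike. The 5 include *Sox2*, which the study also uses as an ectoderm marker, so the sums do not measure ESC-like cells alone. On day 5 *Pou5f1* and *Nanog* had means of 36.3 and 9.34 CPM in KO against 137 and 39.4 CPM in WT. *Zfp42* and *Esrrb* had means of 1.55 and 2.02 against 0.694 and 1.08 CPM. The 7 markers of fibroblasts, the cell type of the feeder layer, summed on day 0 to 82.9 to 106 CPM in KO and 102 to 108 CPM in WT. On day 1 they summed to 53 to 57.9 and 43.4 to 46.5 CPM, on day 2 to 59.8 to 69.8 and 43.2 to 46.9 CPM, on day 3 to 30.8 to 37.4 and 45.4 to 50.2 CPM, and on day 4 to 19.8 to 19.9 and 46.8 to 51.9 CPM, so that KO stood above WT on days 1 and 2 and below on days 3 and 4. On day 3, 3 primitive streak markers summed to 379 to 676 CPM in KO and 11.6 to 24.2 CPM in WT. The part of these cells in the differences was not tested. Of 5 trophoblast markers *Prl3d1* was at 0 in every library, and their sum on day 5 was 2.34 to 6.75 CPM in KO and 1.47 to 3.03 CPM in WT. On day 4 it was 4.17 to 12 CPM in KO and 2.11 to 2.6 CPM in WT, with no overlap. The sum of 5 extraembryonic endoderm markers was 2.26 to 4.91 CPM in KO and 3.71 to 6.97 CPM in WT on day 4. On day 5 it was 2.96 to 6.93 and 1.44 to 1.82 CPM. The part of such cells was not tested either.

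MUT cells were compared with WT70 of the same experiment, and they differed by most at *Grb10* and *Cdkn1c*. On day 3, 1 member was higher and 3 were lower in MUT, against 0.0463% and 0.102% of all genes. On day 5, 6 were higher and 4 lower, against 1.26% and 0.611%. Each day has 1 WT70 library, whose spread was taken from the groups with replicates, and without either MUT library 2 members passed on day 3 and 6 on day 5. With a term for the cell line 7 members passed on day 3.

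*Cdkn1c* was higher in MUT on both days, at 26.2 and 21.8 against 1.8 CPM on day 3 (log2 change 3.73, SE 0.64, adjusted p = 0.00629) and 122 and 147 against 8.29 CPM on day 5 (log2 change 4.02, SE 0.55, adjusted p = 1.19e-04). *Grb10* held 823 and 872 against 15.4 CPM on day 5 (log2 change 5.78, SE 0.68, adjusted p = 2e-05), and on day 3, 435 and 450 against 97.3 CPM without passing (log2 change 2.19, SE 0.55, adjusted p = 0.133). WT7 and WT34 held 47.2, 92.2 and 47.1 CPM of *Cdkn1c* and 197, 264 and 249 CPM of *Grb10* on day 5, so that for both genes WT70 stood below and both MUT libraries stood above all of these libraries. *Zim1* held 17.2 and 16.1 against 2.5 CPM (log2 change 2.73, SE 0.51, adjusted p = 0.00308), *Phlda2* 9.96 and 9.28 against 1.33 CPM (log2 change 2.84, SE 0.75, adjusted p = 0.0368) and *Igf2r* 317 and 317 against 127 CPM (log2 change 1.32, SE 0.14, adjusted p = 4.5e-06) on day 5. *Calcr* held 0.582 and 0.625 against 0.0556 CPM and passed on 1 count in WT70 against 24 in MUT, a ratio of 10.9 with an exact 95% interval of 1.77 to 447 that covers counting error only. The calls of *Phlda2* and *Calcr* were lost without either MUT library (2.80 and 2.89 for *Phlda2*, 3.32 and 3.21 for *Calcr*).

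Lower in MUT were paternal genes and *H19*. *H19* held 2.22 and 3.66 CPM in MUT and 11.6 CPM in WT70 on day 5 (log2 change -1.96, SE 0.42, adjusted p = 0.0087), where WT7 and WT34 held 40, 71.5 and 45.7 CPM. Without CM59 the call was lost (-1.65). *Sgce* held 6.58 and 7.47 against 20.1 CPM on day 3 (log2 change -1.51, SE 0.26, adjusted p = 0.00707) and 30.7 and 33 against 64.8 CPM on day 5 (log2 change -1.02, SE 0.24, adjusted p = 0.0182). *Slc38a4*, an amino acid transporter gene, held 26.9 and 21.8 against 63 CPM on day 3 (log2 change -1.37, SE 0.20, adjusted p = 0.00115). *Snrpn* held 366 and 370 against 758 CPM on day 3 (log2 change -1.04, SE 0.22, adjusted p = 0.0423). On day 5 *Ndn* held 24.2 and 26.9 against 72.3 CPM (log2 change -1.5, SE 0.29, adjusted p = 0.00414) and *Magel2* 7.89 and 9.09 against 20.7 CPM (log2 change -1.29, SE 0.29, adjusted p = 0.0126). The calls of *Snrpn*, *Magel2* and of *Sgce* on both days were lost without either MUT library (*Snrpn* -1.03 and -1.05, *Magel2* -1.18 and -1.40, *Sgce* -1.42 and -1.61 on day 3 and -0.97 and -1.08 on day 5).

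By class, all 14 promoter-DMR genes stood below 0 in MUT on day 3 (median log2 fold change -0.88) and 10 of 14 on day 5 (median -0.21). The 8 maternal genes had medians of 0.94 and 1.73, and all genes 0.00 and 0.02. These medians rest on the only WT70 library of each day. WT70 itself stood below WT7 and WT34 at most maternal genes, as given below. Among the promoter-DMR genes on day 3 it stood above every WT7 and WT34 library at *Peg3* (604 CPM) and *Snrpn* (758 CPM). It stood below every one at *Mest* (156 CPM) and *Nnat* (44.8 CPM). MUT stood above these WT7 and WT34 libraries at *Zrsr1* (25.2 and 27.6 CPM) and below them at *Nnat* (26 and 20.8 CPM). The part of the control in the class medians was not tested. *Mest*, the gene that passed on most days of KO, held 119 and 118 CPM in MUT and 156 CPM in WT70 on day 3, and 802 and 893 against 996 CPM on day 5 (log2 change -0.23, SE 0.36, adjusted p = 0.871).

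**Figure D4:**
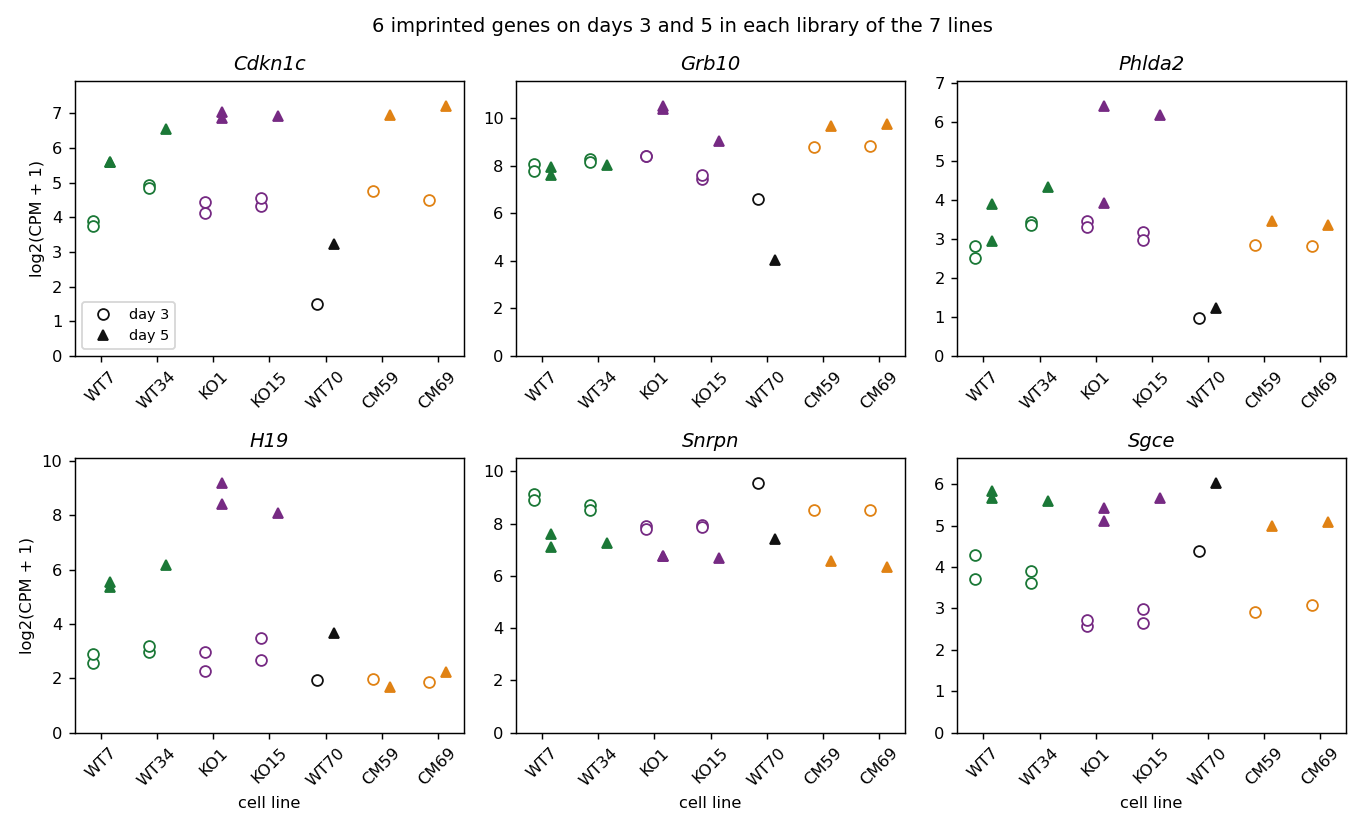
Level of 6 imprinted genes on day 3 (open circles) and day 5 (filled triangles) in each library of the 7 lines, as log2(CPM + 1). WT70 lies apart from WT7 and WT34 for *Cdkn1c*, *Grb10* and *Phlda2*, and MUT lies lowest for *H19* on day 5, at 2.22 and 3.66 CPM.

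WT70 itself differed from WT7 and WT34 at imprinted genes, in a comparison added after the values were seen and across experiments. On day 3, 1 member was higher and 2 were lower in WT70, against 0.315% and 0.264% of all genes, and on day 5 3 were higher and 6 lower, against 1.43% and 2.19%. Maternal genes had medians of -1.04 and -1.14 on days 3 and 5, with 7 and 8 of 8 below 0. The lower ones were *Cdkn1c* (log2 change -3.59, SE 0.62, adjusted p = 0.00318 on day 3 and -2.93 on day 5) and *Phlda2* (-3.38 and -3.48) on both days, and *Grb10* (-3.9), *H19* (-2.04), *Peg13* (-1.4) and *Calcr* on day 5. *Kcnq1ot1*, the paternal RNA of the domain that holds *Cdkn1c* and *Phlda2*, was higher on both days, at 127 CPM on day 3 against 39.7, 27.8, 95.8 and 81.6 CPM in WT7 and WT34 (log2 change 1.7, SE 0.24, adjusted p = 4.47e-04) and by 1.16 on day 5. *Kcnq1ot1* stood higher in experiment 2 than in experiment 1, and the fit, which has no term for experiment 3, sets WT70 against the level of experiment 1, so its distance from the WT libraries of experiment 2 is smaller. *Ndn* (1.1) and *Mkrn3* (1.62) were higher on day 5. Line and experiment cannot be told apart here.

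With WT7 and WT34 of the same day as controls in place of WT70, 0 members were higher and 4 lower in MUT on day 3, against 2.02% and 1.1% of all genes, and 4 higher and 3 lower on day 5, against 4.65% and 3.94%. The calls in both comparisons with the same direction were *Sgce* (-1.12) and *Slc38a4* (-1.42) on day 3, and *Cdkn1c* (1.09), *Grb10* (1.88), *Zim1* (1.57) and *H19* (-4.01) on day 5. Against these controls *Phlda2* (-0.64) and *Calcr* (-0.37) turned below 0, and *Cdkn1c* on day 3 (0.15), *Snrpn* on day 3 (-0.38), *Ndn* (-0.41), *Magel2* (-0.95), *Sgce* (-0.77) and *Igf2r* (0.51) on day 5 no longer passed. *Nnat* (-1.51) and *Peg13* (-1.26) on day 3, and *Igf2* (1.31), *Impact* (-1.33) and *Peg13* (-2.09) on day 5, passed with these controls only. WT7 is the parent line of the MUT clones per the study, but its libraries are from other experiments. The fit has no term for experiment 3, so it sets MUT against the level of experiment 1. On day 5 *Impact* held 92.5 and 93.4 CPM in MUT, and 291, 225 and 143 CPM in WT, the last from experiment 2.

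The effect in KO, with its own WT controls, was then compared directly with that in MUT, with WT70. On day 3 the difference passed for 1 member, *Cdkn1c* (log2 change -3.83, SE 0.69, adjusted p = 0.00503), against 0.394% of all genes in either direction, and for 2 without KO15 of experiment 1, WT7 of experiment 1 or KO15 of experiment 2. On day 5 it passed for 6, against 3.62%. With a term for the cell line it passed for 2 members on day 3 and 11 on day 5. The KO effect was the higher for *H19* (log2 change 4.8, SE 0.48, adjusted p = 3.33e-07), *Igf2* (log2 change 1.73, SE 0.29, adjusted p = 3.77e-04), *Airn* (log2 change 2.49, SE 0.67, adjusted p = 0.0239) and *Slc38a4* (log2 change 1.31, SE 0.24, adjusted p = 0.00105), and the lower for *Grb10* (log2 change -3.56, SE 0.68, adjusted p = 0.00138) and *Cdkn1c* (log2 change -3.05, SE 0.59, adjusted p = 0.00169). On day 5 WT70 held 15.4 CPM of *Grb10* and 8.29 CPM of *Cdkn1c*, below every WT7 and WT34 library of that day. *Grb10* then held 1350, 525 and 1460 CPM in KO and 823 and 872 CPM in MUT. *Cdkn1c* held 130, 120 and 115 against 122 and 147 CPM. With WT7 and WT34 as controls the MUT changes were 1.88 and 1.09, and 0.15 for *Cdkn1c* on day 3. The call of *Airn* was lost without KO1 of experiment 1 (2.44), WT34 (2.36), CM59 (2.43) or CM69 (2.56). For *Mest* the difference was -1.45 on day 3 and -1.45 on day 5 without passing (adjusted p = 0.186 and 0.0613). Genotype and experiment cannot be told apart in this comparison.

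The lines of 1 genotype were compared in the same way. In WT34 against WT7, over all days with a term for the line, 0 members passed with edgeR and 0 with DESeq2, while 0.0463% of all genes passed. An unadjusted p under 0.05 was reached by 19 members, against 4.85% of all genes. On the adjusted p alone 2 members did, against 0.13%: *Cdkn1c*, higher in WT34 (log2 change 0.85, SE 0.11, adjusted p = 3.3e-04), and *Snrpn*, lower in WT34 (log2 change -0.4, SE 0.06, adjusted p = 0.00194). The classes stood on opposite sides of 0. All 8 maternal genes stood higher in WT34 (median log2 fold change 0.43), and 19 of the 22 paternal genes lower (median -0.25), among them 13 of the 14 promoter-DMR genes (median -0.35), whereas the median of all genes was 0.00. Domains hold several members, so these counts are not of independent loci, and no test was made over them.

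**Figure D5:**
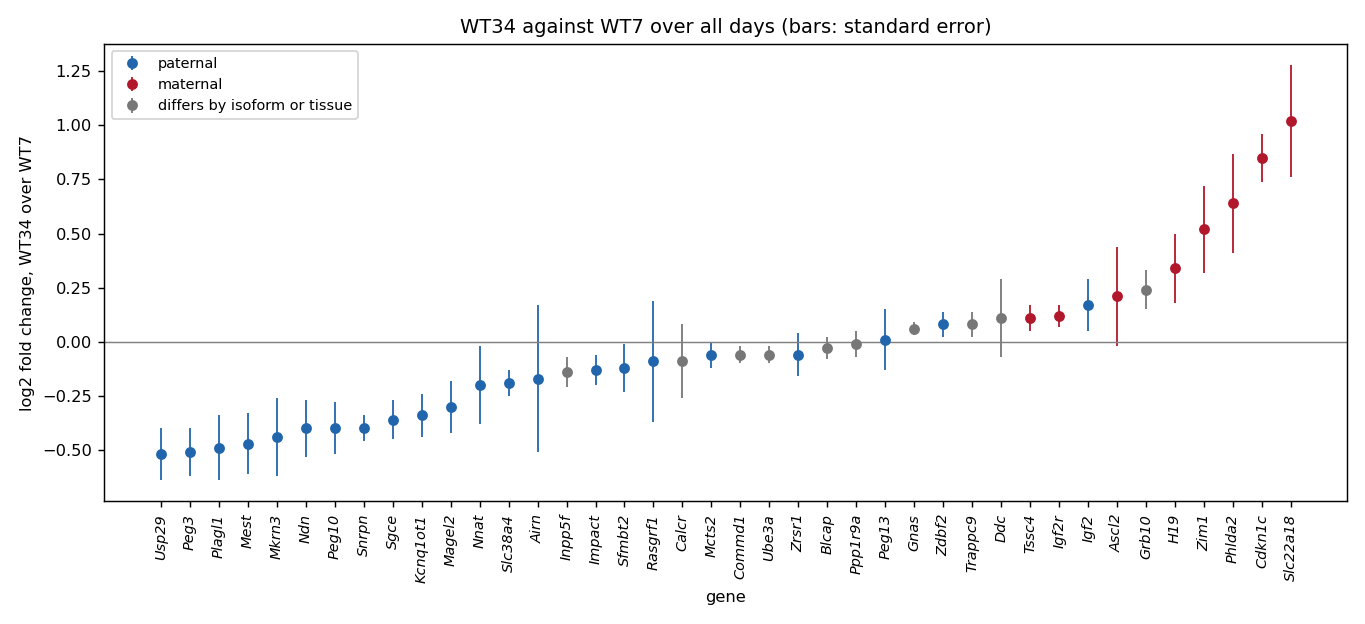
Log2 fold change of WT34 over WT7 across all days (vertical axis, bars are standard errors) for the 40 genes in order of value, coloured by parental class. The paternal genes fill the left side and the 8 maternal genes lie above 0, up to *Slc22a18* at 1.02, which did not pass (adjusted p = 0.31).

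In KO15 against KO1, 0 members passed with edgeR and 0 with DESeq2, while 0.0324% of all genes passed. An unadjusted p under 0.05 was reached by 12 members, against 3.78% of all genes. On the adjusted p alone 3 members did, against 0.0602%: *Grb10*, lower in KO15 (log2 change -0.94, SE 0.09, adjusted p = 1.37e-06), and the retrogenes *Zrsr1* (log2 change 0.57, SE 0.10, adjusted p = 0.0158) and *Mcts2* (log2 change 0.41, SE 0.06, adjusted p = 0.00455), higher in KO15. Of the promoter-DMR genes, 13 of 14 stood higher in KO15 (median 0.26), and of the maternal genes 3 of 8 (median -0.05). In CM69 against CM59, 0 members passed with edgeR, also on the adjusted p alone, and 0 with DESeq2, against 0.00926% of all genes, with log2 fold changes from -0.53 to 0.32. An unadjusted p under 0.05 was reached by 1 member (*Tssc4*, log2 fold change 0.32, SE 0.12), against 1.36% of all genes.

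The differences between lines recurred from day to day. Over the 31 members with a mean of at least 10 CPM, the log2 difference of WT34 from WT7 on day 3 correlated between the 2 experiments by 0.864, and that of KO15 from KO1 by 0.83, against 0.231 and 0.357 over the 10007 genes above that level. Between other days the members' correlation ranged from 0.264 to 0.861 in WT and from 0.372 to 0.796 in KO. These values are descriptions, since the points share lines, libraries and domains.

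The WT time course gave 16 of 40 members that passed from day 0 to day 3 and 15 from day 3 to day 5. From day 0 to day 3, 9 members rose and 7 fell, against 12.9% and 9.62% of all genes, and from day 3 to day 5, 11 rose and 4 fell, against 7.49% and 7.99%. *Calcr* rose first (log2 change 4.61, SE 0.35, adjusted p = 5.74e-11) and then fell (-3.67), and *Magel2* did likewise (4.22 and -1.1), as did *Snrpn* (1.39 and -1.53). *Nnat* (2.22), *Inpp5f* (2.36), *Gnas* (1.56) and *Peg13* (1.03) rose over the first 3 days. *Sgce* (1.59 and 1.83) and *Ndn* (1.21 and 1.06) rose in both periods. *Ddc* (-3.28), *Peg10* (-2.15), *Phlda2* (-2.12), *Sfmbt2* (-1.51) and *Slc38a4* (-1.05) fell over the first 3 days, and *H19* (-1.35) and *Zim1* (-1.51) fell before they rose to day 5 (3.12 and 2.77). *Igf2* (log2 change 3.43, SE 0.17, adjusted p = 4.61e-14), *Airn* (2.95), *Mest* (2.1), *Cdkn1c* (1.54), *Usp29* (1.28), *Peg3* (1.05) and *Plagl1* (1.01) rose from day 3 to day 5, and *Slc22a18* (-1.36) fell. Of these, *Peg13* was lost without WT7 of day 0 or any of 3 libraries of day 3 (WT34 of either experiment and WT7 of experiment 2; 0.89 to 0.99). From day 3 to day 5, *Peg3* was lost without WT7 of experiment 2 on day 5 (0.78) or WT34 of experiment 2 on day 3 (0.95), *Ndn* without the same libraries (0.82 and 0.89), *Usp29* without the former (0.98), and *Plagl1* without either (0.49 and 0.86) or WT34 of experiment 1 on day 3 (0.98). *Magel2* was lost without WT7 of either experiment on day 3 (-0.99 and -0.97), or WT34 (-0.99) or WT7 of experiment 2 (-0.88) on day 5, and *Slc22a18* without WT34 of either experiment on day 3 (-0.92 and -1.14) or WT7 of either on day 5 (-1.3 and -1.03). With a term for the cell line, *Peg3* (0.95), *Ndn* (0.98) and *Plagl1* (0.91) did not pass.

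The factors known to keep or remove imprints were listed from general knowledge as 18 genes, of which 17 were tested. *Tet1* was the only one that passed in KO against WT, with log2 fold changes from -5.46 on day 0 to -1.13 on day 5, which checks the labels. *Zfp57* did not pass on any day, with the largest value on day 1 (0.59, adjusted p = 0.00203). *Trim28* (-0.25 to 0.20), *Dnmt1*, the maintenance methyltransferase (-0.17 to 0.02), and *Zfp445* (-0.08 to 0.10) did not pass. The de novo methyltransferase gene *Dnmt3a* was at -0.58 (adjusted p = 0.000169) and *Dnmt3b* at -0.49 (adjusted p = 0.00298) on day 0, short of the fold limit, and *Dnmt3b* stood at -0.71 and -0.64 on days 4 and 5. In MUT against WT70 none of the 17 passed.

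Of 30 further imprinted genes listed from general knowledge, 24 were tested. In KO against WT, 0.569% of all genes were higher and 0.296% lower on day 0, and 0.292% and 0.343% on day 1. The shares were 0.417% and 0.199% on day 2, 2.09% and 1.87% on day 3, and 3.4% and 4.28% on day 4. By day 5 they were 5.99% and 5.73%. On days 0 to 5 of KO against WT 1, 1, 1, 0, 2 and 5 of the 24 were higher and 0, 0, 0, 4, 4 and 1 lower. *Adam23*, an adhesion gene beside *Zdbf2*, was the only one higher on 3 days or more, at log2 fold changes of 1.12, 1.39 and 1.22 on days 0, 1 and 2 (adjusted p = 3.25e-07, 8.24e-09 and 9.33e-08), and it was lower on day 5 (-1.04, adjusted p = 2.29e-08). In MUT against WT70 0 of the 24 were higher and 1 lower on day 3, and 2 higher and 0 lower on day 5. The shares of all genes in MUT are those given above for the members. *Zdbf2*, the neighbour of *Adam23* among the 40 genes, stood at -0.70, -0.63 and -0.79 on the first 3 days of KO against WT.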

How the data were processed

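PolyA RNA of 36 libraries from 7 ESC lines was measured by bulk RNA-seq in 3 experiments. The authors trimmed reads with Trim Galore 0.6.4 and estimated transcript abundance with Salmon 0.14.1 against mouse GENCODE transcripts, and deposited the estimated counts per gene (expected counts, not normalized) and TPM, per the file headers and the study's methods. Salmon divides reads shared between near-identical transcripts by estimate. The library kit was stranded, and the strand setting of the quantification is not given in the sources used here. Gene positions are GENCODE M21 (GRCm38), and promoters are RefSeq (GRCm38.p6).

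The estimated counts were rounded, and a gene was tested with at least 10 counts in enough libraries for the smallest group and 15 in all (filterByExpr). With edgeR 4.0.16 in R 4.3.3, its quasi-likelihood F test was run on a model fitted to all 36 libraries with 16 group means and a term for experiment 2, with TMM factors and Benjamini-Hochberg adjustment over 21601 genes. Line comparisons used a term for each line. Steps were tested on simulated data. Alternatives were DESeq2 1.42.0, limma 3.58.1 on log2(TPM + 1), other factors and filters, and each library left out in turn. The lines pair libraries across days, since the same 4 lines gave all days; their deviations from the group means correlated by -0.0729 to 0.0457 over all genes and 0.0208 to 0.733 over the 40 genes.

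The genes, their classes and all lists were chosen with earlier results of these data known. Values are given by library for every member that passed in KO against WT, MUT against WT70 or between lines, and other members by range; others are named only from fixed lists of imprinting factors, imprinted genes higher or lower on 3 or more days, and markers. Sequences are shown for members passing on most days. The adjusted p alone as a rule, and WT70 against WT7 and WT34, were added after values were seen. Depth was 10.1 M to 26.3 M counts a library, and intervals cover counting error only.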

Additional observations from a re-analysis of the deposited data

Results flagged for a closer look

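For 7 values the KO effect and the MUT effect differed by a test of the difference itself (edgeR quasi-likelihood F test, log2 scale, KO effect minus MUT effect). On day 3 this was *Cdkn1c* (-3.83). On day 5 these were *H19* (4.8), *Airn* (2.49), *Igf2* (1.73), *Slc38a4* (1.31), *Grb10* (-3.56) and *Cdkn1c* (-3.05). Each rests on 1 WT70 library a day, and genotype and experiment cannot be told apart. For *Cdkn1c* on both days and *Grb10* on day 5, WT70 lay below every WT7 and WT34 library of the same day.

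For 12 genes the KO effect differed between days 5 and 0 by the same kind of test, always with the higher effect on day 5: *Peg3* (3.45), *Grb10* (2.87), *Zim1* (2.75), *Usp29* (2.71), *Phlda2* (2.33), *H19* (2.14), *Ddc* (2.10), *Nnat* (2.01), *Igf2* (1.81), *Peg10* (1.70), *Cdkn1c* (1.54) and *Igf2r* (1.09).

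Of 80 groups of 4 libraries, 1 held a lone library by Dixon's criterion, where chance marks about 1 group in 20. It was *Airn* on day 3, at 0.813 CPM in WT34 of experiment 2 against 0.503 to 0.555 CPM in the other WT libraries.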

How the results depend on the processing

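The number of members that passed, 3, 4, 4, 6, 13 and 16 in KO against WT on days 0 to 5, fell with limma on log2(TPM + 1) to 1, 1, 1, 3 and 6 on days 0 to 4, and with a fold limit of 1.5 on the log2 scale to 1, 2, 3, 6 and 9 on days 1 to 5. On day 0 it was 5 without a filter, 5 with DESeq2 and 6 with 1 summed library per line and day, and on day 1 it was 0 with the compared libraries only. In MUT against WT70 on day 3 (4) it was 11 without a filter, 7 with DESeq2, 1 with limma, 2 with the fold limit of 1.5, 7 with the cell line as replicate block and 12 with the compared libraries only, and on day 5 (10) it was 5 with limma. For the KO effect minus the MUT effect it was 5 without a filter, 2 with DESeq2 and 2 with the replicate block on day 3 (1), and 11 without a filter and 11 with the replicate block on day 5 (6). In WT from day 3 to day 5 (15) it was 9 with the fold limit of 1.5. With WT7 and WT34 as controls, *Phlda2* (-0.64) and *Calcr* (-0.37) of MUT on day 5 reversed. The causes were not tested.

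Without 1 library the counts were 1 to 3, 1 to 9, 0 to 3, 4 to 9, 10 to 12 and 14 to 18 in KO on days 0 to 5, 2 and 6 in MUT on days 3 and 5, 1 to 2 and 5 to 8 for KO minus MUT, 10 to 13 for day 5 minus day 0, 15 to 17 and 10 to 16 in WT over time, and 0 between the MUT clones. Leaving out WT70 gives no value. Of 110 calls of a member, 110 held without a filter, 109 with RLE factors, 108 with DESeq2, 106 with the replicate block, 102 without the experiment term, 70 with limma and 69 with the fold limit of 1.5, and of 91 calls 82 held with the compared libraries only and 83 with summed libraries. The replicate block is a term for the difference between the lines of a genotype. It takes this difference out of the spread and does not set genotype against the spread between lines. With the replicate block 4 calls were lost, those of *Peg13* on day 5 of KO and of *Peg3*, *Ndn* and *Plagl1* in WT from day 3 to day 5, and calls were also gained: the counts in KO became 4, 6, 6 and 7 on days 0 to 3, that of day 5 minus day 0 became 14 (from 12) and that of WT from day 0 to day 3 became 17 (from 16).

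Over all genes, KO against WT gave 187, 137, 133, 856, 1660 and 2532 calls on days 0 to 5. These were 377, 421 and 333 without a filter on days 0 to 2, 69, 66, 45, 255, 770 and 983 with limma on days 0 to 5, 84, 61, 73 and 452 with the fold limit of 1.5 on days 0 to 3, and 5 and 66 with the compared libraries only on days 1 and 2. In MUT against WT70 on day 3 (32) they were 218 without a filter, 56 with DESeq2, 21 without the experiment term and 300 with the compared libraries only, and on day 5 (405) 738, 150 with limma, 236 and 824. KO minus MUT gave 85 on day 3 (419 without a filter, 185 with DESeq2, 55 with 1.5) and 782 on day 5 (351 with limma, 499 with 1.5), day 5 minus day 0 gave 1634 (897 and 1086), and WT over time gave 4858 (2323 with limma) and 3344 (1175 and 2085). Between lines, KO15 against KO1 gave 7 (12 without a filter, 16 with DESeq2), WT34 against WT7 10 (18, 24, and 5 with limma) and CM69 against CM59 2 (5 and 17). Low genes such as *Airn*, *Rasgrf1*, *Calcr* and *Slc22a18* are limited by depth.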
